A study of Homo sapiens with 4 samples.

Results

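The proteasome genes of SUP-M2 cells were taken as all protein-coding genes of the deposited table whose symbol starts with PSMA, PSMB, PSMC, PSMD, PSME, PSMF or PSMG followed by a number. These were 49 genes among 19951 protein-coding genes and 58735 genes in all, and 37 rows that share such a symbol stem but carry another biotype were left out. SUP-M2 is an established human cell line from an ALK-positive anaplastic large cell lymphoma, which arises from mature T cells. RNA-seq was done on 2 libraries labelled shGOLM1, from cells with short hairpin RNA against the Golgi membrane protein GOLM1, and on 2 libraries labelled shscramble, from cells with a scrambled hairpin. The titles name hairpins while the genotype label calls the shGOLM1 cells a knockout, and neither the hairpin sequences nor separate cultures are given, so the p-values measure no more than how these libraries vary, which could be technical variation.

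The proteasome degrades proteins that carry ubiquitin chains. Its 20S core is a barrel of alpha rings, which gate the entry, around beta rings, which hold the protease sites. The 19S regulatory particle binds the chain, removes it, and unfolds the substrate with a ring of ATPases, while other caps (the PSME activators) and dedicated chaperones (the PSMG proteins and PSMD5, PSMD9 and PSMD10) serve opening and assembly. In lymphoid cells and under interferon, PSMB8, PSMB9 and PSMB10 can replace the constitutive catalytic subunits PSMB5, PSMB6 and PSMB7 to form the immunoproteasome, which shapes peptides for MHC class I. Subunits are built in fixed proportions, and the factor NFE2L1 can raise many proteasome genes together through antioxidant response elements. Blood cancers such as myeloma are treated with drugs that block PSMB5.

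RefSeq promoter windows on GRCh38.p14, from 250 bases before to 50 bases after the start, were found for 43 of the 49 genes. PSMA7, PSMB1, PSMB6, PSMB7, PSMD4 and PSMG3 are named only. Each window was searched on both strands for 3 short motifs that known regulators can bind: CCAAT (the NF-Y box), TGACNNNGC (the core of the antioxidant response element, whose letters sites of AP-1 and small MAF factors can also match) and GAAANNGAA (a repeat found in interferon-responsive elements). The 5 windows below are shown because they belong to members with no overlap between the groups in opposite directions (PSMD6, PSMD3 and PSMB8 below, PSMB10 above), and PSMB9 completes the immunoproteasome subunits. Capitals mark the motif matches, which on the other strand read as the reverse complement.
PSMD6, chr3:64023445-64023744, minus strand: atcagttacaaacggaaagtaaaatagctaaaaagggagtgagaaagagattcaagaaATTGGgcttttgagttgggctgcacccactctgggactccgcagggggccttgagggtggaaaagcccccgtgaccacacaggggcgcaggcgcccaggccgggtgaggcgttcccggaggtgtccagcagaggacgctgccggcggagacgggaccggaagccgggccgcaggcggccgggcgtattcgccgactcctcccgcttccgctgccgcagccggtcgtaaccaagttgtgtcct
PSMD3, chr17:39980557-39980856, plus strand: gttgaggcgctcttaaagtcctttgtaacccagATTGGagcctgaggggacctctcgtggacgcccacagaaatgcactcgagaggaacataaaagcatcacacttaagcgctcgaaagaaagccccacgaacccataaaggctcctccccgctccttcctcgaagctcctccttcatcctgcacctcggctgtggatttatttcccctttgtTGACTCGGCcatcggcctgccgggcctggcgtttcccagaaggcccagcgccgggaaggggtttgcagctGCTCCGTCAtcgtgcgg
PSMB8, second listed start, chr6:32843998-32844297, minus strand: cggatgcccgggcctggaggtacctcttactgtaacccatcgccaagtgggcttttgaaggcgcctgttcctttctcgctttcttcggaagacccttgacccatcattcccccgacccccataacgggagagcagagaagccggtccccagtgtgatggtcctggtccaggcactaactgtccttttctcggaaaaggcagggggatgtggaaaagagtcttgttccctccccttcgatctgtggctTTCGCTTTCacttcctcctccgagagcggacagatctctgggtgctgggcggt
PSMB9, chr6:32853942-32854241, plus strand: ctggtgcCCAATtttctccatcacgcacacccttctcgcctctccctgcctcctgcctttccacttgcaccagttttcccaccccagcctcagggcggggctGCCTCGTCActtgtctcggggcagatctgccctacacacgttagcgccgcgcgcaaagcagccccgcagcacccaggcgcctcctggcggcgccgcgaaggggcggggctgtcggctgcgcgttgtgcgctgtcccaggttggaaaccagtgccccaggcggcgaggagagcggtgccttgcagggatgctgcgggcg
PSMB10, chr16:67936801-67937100, minus strand: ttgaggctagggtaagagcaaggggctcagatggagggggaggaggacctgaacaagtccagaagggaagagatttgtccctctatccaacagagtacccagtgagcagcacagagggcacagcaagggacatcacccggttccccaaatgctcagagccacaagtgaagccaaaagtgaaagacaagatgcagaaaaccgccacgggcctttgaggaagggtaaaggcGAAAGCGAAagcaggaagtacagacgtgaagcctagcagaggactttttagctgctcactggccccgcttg

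CCAAT stood in a window of 21 of the 43 members (48.8%), against 39.7% of 27305 genes with a window. TGACNNNGC stood in 15 members (34.9%), against 16.1% of all genes, and GAAANNGAA in 8 members (18.6%), against 9.86% of all genes. The 27305 genes outnumber the 19951 protein-coding genes of the deposited table, so they are a wider class than the members, which are all protein-coding. Among the immunoproteasome subunits GAAANNGAA stood in PSMB10, beginning 21 bases before the start, and in PSMB8. There it began 3 bases before the second listed start and ran across that start. The window of the first listed start of PSMB8, not shown, held no match of the 3 motifs. PSMD3 held the antioxidant core on both sides of its start. A match describes letters in a window and is not a bound site.

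GOLM1 itself was at 69.6 and 69.5 CPM in the shGOLM1 libraries, against 212 and 213 CPM in the shscramble libraries, where CPM is the count scaled to the library total after adjustment by TMM, edgeR's trimmed mean of M-values. Totals ran from 27544171 to 31972153 counts, so 3 counts, the limit that a count of 0 allows for counting error, is 0.0938 to 0.109 CPM of an unscaled total. The shGOLM1 libraries stood apart from each other, with a coefficient of variation of 68.1% within the shGOLM1 pair and 9.1% within the shscramble pair. In shGOLM1 replicate 2 ribosomal-protein genes took 16.3% of the counts and mitochondrially encoded genes 0.455%, against 7.55% and 1.95% in shGOLM1 replicate 1, and against 8.44% to 9.91% and 2.24% to 2.38% in the shscramble libraries. All 7 marker genes of the lymphoma were tested, and summed they were at 4328 and 1853 CPM in shGOLM1, against 2918 and 2875 CPM in shscramble. The largest part of each sum was IRF4, at 2239 and 743 CPM in shGOLM1, against 1138 and 1208 CPM in shscramble. Of the 7, 2 lay below in both shGOLM1 libraries and 1 above, beside 26.5% and 25.2% of all genes tested. Among those below was TNFRSF8, which encodes CD30, at 539 and 88.4 CPM in shGOLM1, against 634 and 614 CPM in shscramble. The granule gene PRF1 lay above, at 621 and 145 CPM in shGOLM1, against 2.91 and 2.71 CPM in shscramble, and the other 4 overlapped. Summed markers of B cells, fibroblasts and epithelial cells reached at most 0.659, 1.04 and 3.16 CPM in any library, and CD3G was at 0 in all 4. Summed T cell markers, nearly all from CD4, were at 313 and 392 CPM in shGOLM1, against 186 and 184 CPM in shscramble, and summed myeloid markers, nearly all from CSF1R, at 311 and 232 CPM in shGOLM1, against 235 and 242 CPM in shscramble. Their part in the results, and that of the composition of shGOLM1 replicate 2, was not tested.

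Most proteasome genes had their 2 shGOLM1 values below their 2 shscramble values, yet none passed the test over all genes. Of the 49 members 48 were tested, and PSMB11, a subunit restricted to the thymus, had 0 counts in every library. The shGOLM1 pair lay wholly below the shscramble pair for 28 of the 48 tested (58.3%), where 26.5% of the 14166 genes tested did so. The pair lay wholly above for 2 of the 48 (4.17%), PSMA2 and PSMB10, against 25.2% of all genes tested. Scaled by library totals alone, 35 members lay below and 3 above, against 26.7% and 23.4% of all genes. The median log2 fold change of the 48, shGOLM1 over shscramble, was -0.45, against 0.05 over all genes tested, and 40 of 48 values were negative. Summed over all members the level was 5092 and 5426 CPM in the shGOLM1 libraries, against 7635 and 7094 CPM in the shscramble libraries, which puts the shGOLM1 libraries at 69.1% and 73.7% of the shscramble mean.

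edgeR's quasi-likelihood test with Benjamini-Hochberg adjustment called 0 of the 48 members at an adjusted p under 0.05, as it called 0 (0.0%) of the 14166 genes. At an unadjusted p under 0.05 it had 4 members lower (8.33%), PSMD6, PSMA4, PSMD7 and PSMD12, and 0 higher, against 3.58% lower and 8.2% higher over all genes. DESeq2 and limma-voom called 0 members, while DESeq2 called 0.339% of all genes lower and 3.42% higher. The authors' deposited table likewise holds 0 of 48 members with an adjusted p under 0.05, with 40 log2 fold changes negative, 8 positive and a median of -0.48, against a median of 0.29 over its 23642 genes with a test. As cells were measured in bulk, fewer transcripts per cell and a different mixture of cells cannot be told apart.

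With each shGOLM1 library taken alone against both shscramble libraries, many members passed edgeR's quasi-likelihood test after Benjamini-Hochberg adjustment. Such a fit takes its error from the shscramble pair alone, so it compares libraries and not conditions. With replicate 1 alone 36 members were lower (75.0%) and 1 higher (2.08%), against 24.1% and 20.4% of all genes tested in that fit. With replicate 2 alone 28 were lower (58.3%) and 9 higher (18.8%), against 34.1% and 33.3% of all genes. The fits share the shscramble libraries and are given side by side. With replicate 1 the higher member was PSMB10, and PSMA1, PSMA2, PSMA6, PSMA8, PSMB2, PSMB9, PSMD2, PSMD5, PSMD11, PSME4 and PSMF1 did not pass. With replicate 2 the higher members were PSMA1, PSMA2, PSMA6, PSMB10, PSMC6, PSMD10, PSMD14, PSME1 and PSMG2, and PSMA8, PSMB1, PSMB3, PSMB4, PSMB9, PSMC1, PSMC3IP, PSMD8, PSMD9, PSMD13 and PSMG3 did not pass. The remaining members were lower in each fit.

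**Figure D1:**
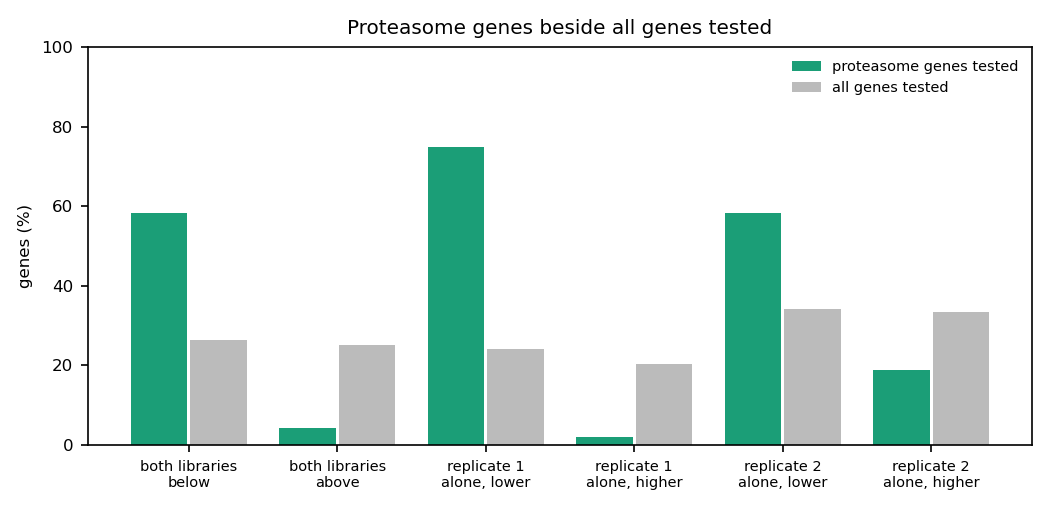
Bars give the percentage of the 48 proteasome genes tested (green) and of all genes tested (grey) in 6 comparisons of shGOLM1 with shscramble: no overlap between the groups, and edgeR's quasi-likelihood test at an adjusted p under 0.05 with 1 shGOLM1 library taken alone. The share of proteasome genes is 58.3%, 75.0% and 58.3% in the lower direction, above the grey bars of 26.5%, 24.1% and 34.1%.

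After TMM scaling, the median difference from the shscramble mean was nearly the same in both shGOLM1 libraries, but the spread around it was not. It was -0.52 log2 units in replicate 1 and -0.52 in replicate 2, against 0.00 and -0.04 over all genes tested. The standard deviation over the 48 members was 0.38 log2 units in replicate 1 and 1.10 in replicate 2, against 0.96 and 1.69 over all genes. In replicate 1 the members' differences ran from -1.08 to 0.62, and in replicate 2 from -3.79 to 2.93. Replicate 1 thus had the members close together, with 43 of 48 below the shscramble mean, while replicate 2 had 33 below it. The match of the medians depends on the scaling, as the TMM factors were 1.124 and 0.8277 in shGOLM1, against 1.021 and 1.053 in shscramble. Of the unscaled counts, all members together took 0.572% and 0.448% in shGOLM1, against 0.779% and 0.746% in shscramble.

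**Figure D2:**
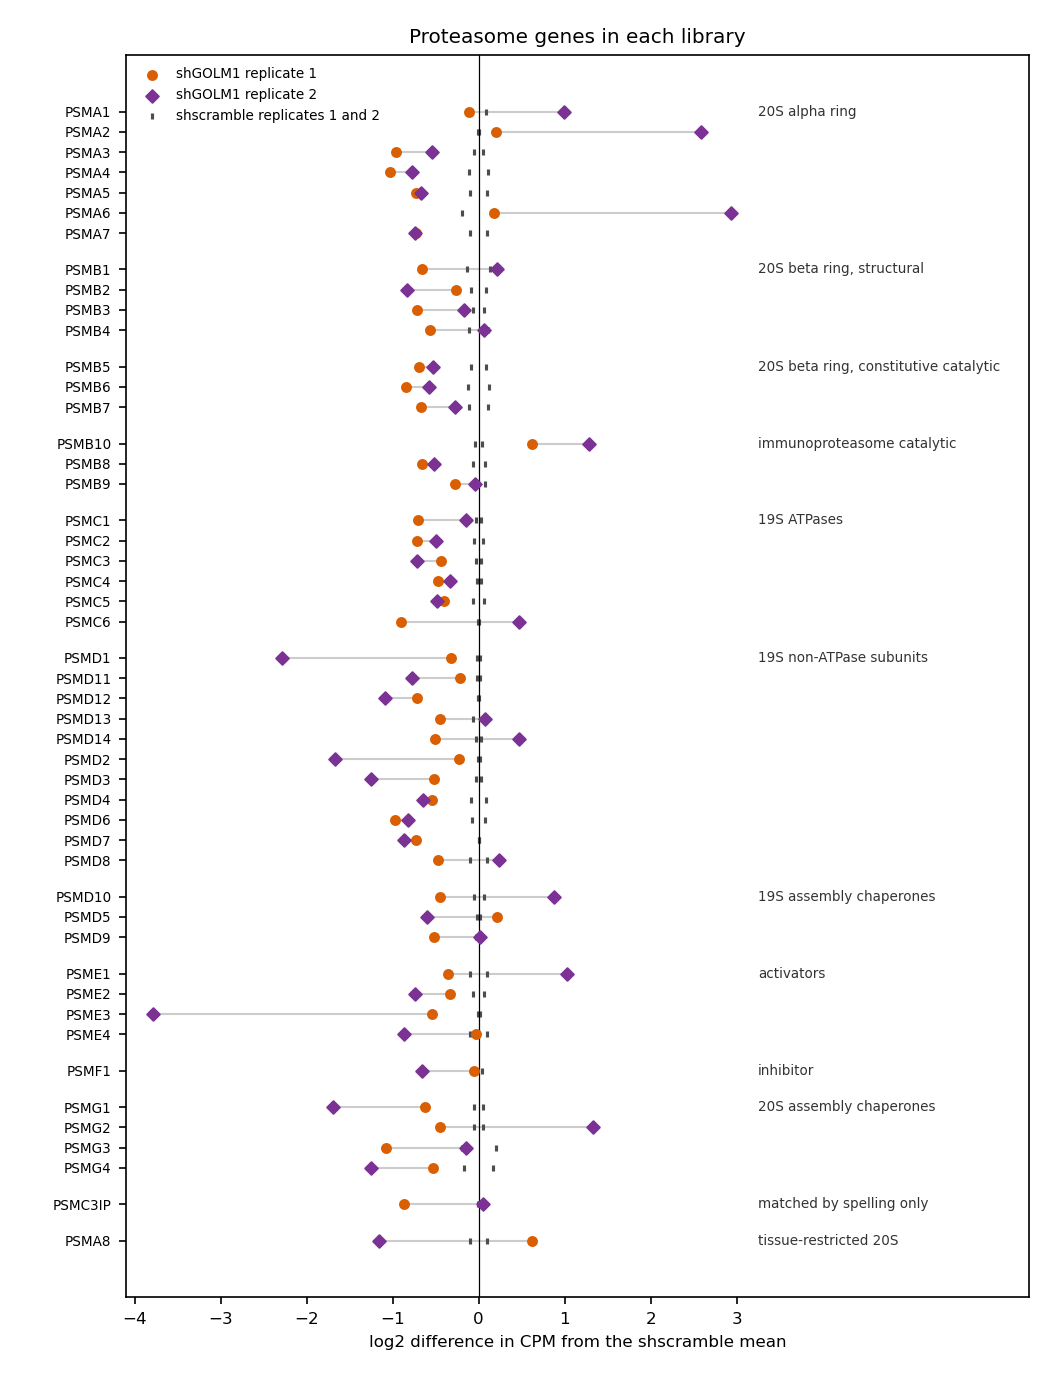
Each row is a tested proteasome gene, grouped by role, and the horizontal axis is the log2 difference in CPM of 1 library from the shscramble mean. Orange circles are shGOLM1 replicate 1, purple diamonds shGOLM1 replicate 2 and black ticks the shscramble libraries. The orange circles lie between -1.08 and 0.62, the purple diamonds between -3.79 and 2.93.

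In the alpha ring, the gate of the core, 4 of 7 subunits lay below in both shGOLM1 libraries, 1 lay above and 2 overlapped. Counts by role, here and below, stand beside 26.5% below and 25.2% above over all genes tested. PSMA4 was at 139 and 166 CPM in shGOLM1, against 306 and 262 CPM in shscramble, with a log2 fold change of -0.90 (SE 0.30) and a quasi-likelihood adjusted p of 0.42 (edgeR). PSMA7 was at 138 and 137 CPM in shGOLM1, against 245 and 214 CPM in shscramble. PSMA5 was at 93.3 and 97.3 CPM in shGOLM1, against 166 and 144 CPM in shscramble. These subunits had close values in the shGOLM1 pair and no overlap between the groups. PSMA3 was at 120 and 160 CPM in shGOLM1, against 242 and 225 CPM in shscramble, again without overlap. Summed, these 4 stood at 54.4% and 62.1% of the shscramble mean in the shGOLM1 libraries.

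The other alpha subunits, PSMA1, PSMA2 and PSMA6, had low listed levels and went the other way in shGOLM1 replicate 2. PSMA6 was at 1.67 and 11.7 CPM in shGOLM1, against 1.29 and 1.68 CPM in shscramble, so that replicate 1 lay within the shscramble range and replicate 2 far above it. PSMA2 was at 4.04 and 21.4 CPM in shGOLM1, against 3.52 and 3.49 CPM in shscramble. PSMA1 was at 21.0 and 45.2 CPM in shGOLM1, against 21.3 and 24.0 CPM in shscramble. In each of them the high value is that of shGOLM1 replicate 2. A ring holds every alpha subunit in equal number, yet per length the authors' mean in shscramble was 0.226 FPKM for PSMA6 and 0.65 FPKM for PSMA2, against 26.8 to 130 FPKM for PSMA3, PSMA4, PSMA5 and PSMA7.

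The annotation of these subunits overlaps that of other genes. Of the members 5 share more than 10% of the bases of their principal GENCODE 29 transcript with another annotated protein-coding gene on the same strand: PSMA6 81.0%, PSMA1 53.2%, PSMA2 52.5%, PSMB10 45.3% and PSMD9 43.8%. Some members that share none on the same strand were also low in shscramble, with PSMA8 at 0.911 FPKM, PSMG4 at 3.07 FPKM and PSMC3IP at 6.31 FPKM, against 0.226 to 6.8 FPKM for the 5. PSMC3IP does share bases with a gene on the opposite strand. PSMA6 and PSMA2, at 0.226 and 0.65 FPKM, lay below every non-sharing member with counts. The alpha subunits that share none, PSMA3, PSMA4, PSMA5 and PSMA7, stood at 26.8 to 130 FPKM. The partner genes held few counts, among them 0 to 3 for the partner of PSMA6, 0 in every library for that of PSMA1 and 4 to 62 for that of PSMB10. The summed level of the 5 was 50.7 and 115 CPM in shGOLM1, against 48.1 and 50.1 CPM in shscramble. None of the 5 lay below in both shGOLM1 libraries, and 2 lay above, beside 26.5% below and 25.2% above over all genes tested. Of the other 43 tested, 28 lay below and 0 above, with a median log2 fold change of -0.52. The sources used here do not say how the authors counted reads that fall in more than 1 gene, so the levels of these 5 are uncertain, and the part that counting had in them was not tested.

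**Figure D3:**
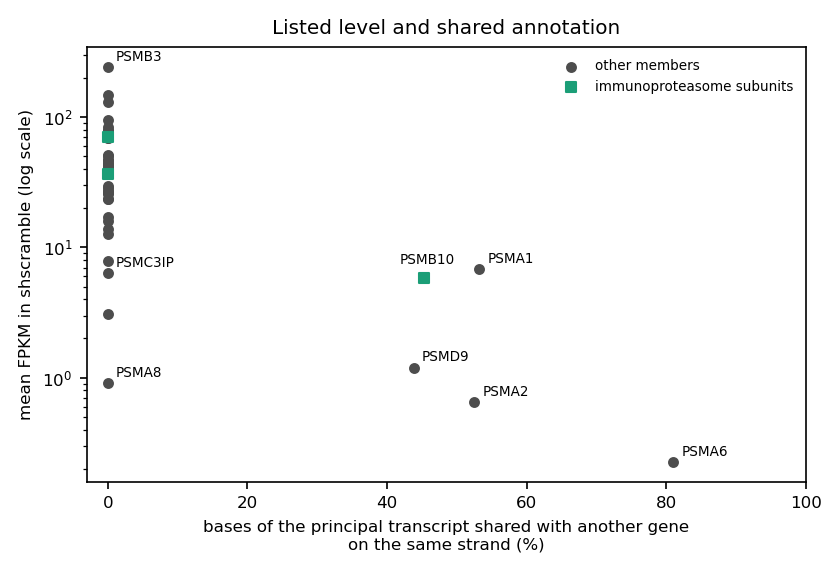
The horizontal axis is the percentage of the bases of the principal transcript that lie in an exon of another gene on the same strand, and the vertical axis, on a log scale, is the mean of the authors' FPKM in the 2 shscramble libraries. Points are the 48 members with counts. The 5 members at 43.8% to 81.0% sit between 0.226 and 6.8 FPKM, and the members at 0% reach from PSMA8 at 0.911 FPKM to PSMB3 at 243 FPKM.

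Further limits bear on reads that could belong elsewhere. Exon bases on either strand are shared with another gene by 24 members, and no source used here gives the strand setting of the counting. Of the principal transcript, 82.2% in PSMC1, 54.4% in PSMC3IP and 50.4% in PSMD7 faces a gene on the opposite strand. Of 32 listed pseudogenes with member names 11 held counts, in sum 137 and 173 in shGOLM1, against 216 and 161 in shscramble. PSMA6P1 had 50 and 44 counts in shGOLM1, against 41 and 33 in shscramble, where PSMA6 itself had 58 and 266 in shGOLM1, against 42 and 56 in shscramble.

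The constitutive catalytic subunits carry the protease sites, and all 3 lay below in both shGOLM1 libraries. PSMB5, the chymotrypsin-like subunit, was at 48.8 and 54.7 CPM in shGOLM1, against 83.8 and 74.3 CPM in shscramble. PSMB6, the caspase-like subunit, was at 76.8 and 92.5 CPM in shGOLM1, against 150 and 126 CPM in shscramble. PSMB7, the trypsin-like subunit, was at 94.0 and 125 CPM in shGOLM1, against 162 and 139 CPM in shscramble. The groups did not overlap in any of them, and replicate 1 was the lower shGOLM1 library each time. Their log2 fold changes of -0.61 (SE 0.28), -0.71 (SE 0.29) and -0.46 (SE 0.31) had adjusted p of 0.461, 0.439 and 0.561 in edgeR's quasi-likelihood test. That of PSMB7 was -0.70 without shGOLM1 replicate 2.

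The structural beta subunits have no protease site. PSMB2 was at 191 and 129 CPM in shGOLM1, against 243 and 216 CPM in shscramble, and PSMB3 at 176 and 256 CPM in shGOLM1, against 302 and 277 CPM in shscramble, both without overlap. PSMB4 was at 218 and 337 CPM in shGOLM1, against 349 and 299 CPM in shscramble. PSMB1 was at 99.8 and 183 CPM in shGOLM1, against 172 and 144 CPM in shscramble. In PSMB1 and PSMB4 replicate 1 was the lowest library while replicate 2 lay above at least 1 shscramble library. PSMB3 and PSMB4 also had the highest means per length of all members in shscramble, at 243 and 149 FPKM.

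The immunoproteasome subunits did not move as a unit. PSMB8, which takes the place of PSMB5, was at 134 and 147 CPM in shGOLM1, against 221 and 201 CPM in shscramble, with a log2 fold change of -0.59 (SE 0.28) and a quasi-likelihood adjusted p of 0.468 (edgeR). PSMB9, which takes the place of PSMB6, was at 93.3 and 110 CPM in shGOLM1, against 119 and 107 CPM in shscramble, and the groups overlapped. PSMB10, which takes the place of PSMB7, was at 16.7 and 26.5 CPM in shGOLM1, against 11.1 and 10.5 CPM in shscramble, with both shGOLM1 libraries above. Its log2 fold change was 1.00 (SE 0.40) with a quasi-likelihood adjusted p of 0.434 (edgeR), in a range from 3.53e-06 with shGOLM1 replicate 2 alone to 1 over the alternatives. Without shGOLM1 replicate 2 its log2 fold change was 0.61. PSMB10 is one of the 5 members that share bases with another gene on the same strand.

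The ratio of 2 genes within a library does not depend on how libraries are scaled, so each immunoproteasome subunit was set against the subunit it replaces. The log2 ratio of PSMB8 to PSMB5 was 1.45 and 1.43 in shGOLM1, against 1.40 and 1.43 in shscramble, a difference of 0.02 that lies within the spread of the libraries (two-sided exact permutation p = 0.667). The ratio of PSMB9 to PSMB6 was 0.28 and 0.25 in shGOLM1, against -0.33 and -0.24 in shscramble, a difference of 0.55 (two-sided exact permutation p = 0.333). The ratio of PSMB10 to PSMB7 was -2.49 and -2.23 in shGOLM1, against -3.86 and -3.72 in shscramble, a difference of 1.43 (two-sided exact permutation p = 0.333). Adjusted over the 3 pairs by Benjamini-Hochberg the exact permutation p became 0.667, 0.5 and 0.5, and 2 libraries against 2 cannot go below 0.333. The last 2 ratios were higher in both shGOLM1 libraries by more than the spread within either group, while that of PSMB8 to PSMB5 was not. PSMB9 itself overlapped between the groups, while PSMB6 lay below in both shGOLM1 libraries. In the last ratio PSMB10 lay above and PSMB7 below, and the level of PSMB10 is uncertain because of its shared bases. Per length, PSMB8 stood at 1.61 and 1.58 times PSMB5 in shGOLM1, against 1.55 and 1.59 times in shscramble, by the authors' FPKM.

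**Figure D4:**
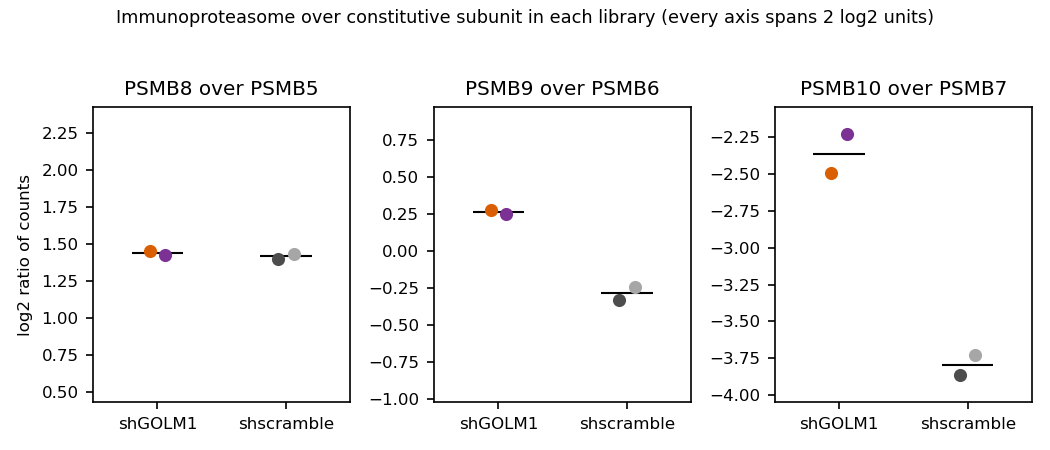
Points are the log2 ratio of counts of an immunoproteasome subunit to the constitutive subunit it replaces in each library, with shGOLM1 left and shscramble right, replicate 1 on the left of each pair (orange and dark grey) and replicate 2 on its right (purple and light grey), and lines are group means. The ratio of PSMB8 to PSMB5 is 1.40 to 1.45 in all 4 libraries, while the other 2 ratios are higher in both shGOLM1 libraries by 0.55 and 1.43 in the mean.

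The ATPases of the 19S particle, which unfold substrates and feed them into the core, had 5 of 6 below in both shGOLM1 libraries. PSMC2 was at 90.4 and 106 CPM in shGOLM1, against 155 and 144 CPM in shscramble. PSMC3 was at 132 and 109 CPM in shGOLM1, against 183 and 175 CPM in shscramble. PSMC5 was at 175 and 166 CPM in shGOLM1, against 243 and 222 CPM in shscramble. All 3 had close values in the shGOLM1 pair and no overlap. PSMC4 was at 123 and 136 CPM in shGOLM1, against 174 and 169 CPM in shscramble. PSMC6 did not follow, at 119 and 309 CPM in shGOLM1, against 224 and 222 CPM in shscramble, with replicate 1 below and replicate 2 above. PSMC1 was at 61.3 and 89.9 CPM in shGOLM1, against 102 and 97.5 CPM in shscramble.

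Of the 11 other subunits of the 19S particle 8 lay below in both shGOLM1 libraries and 0 above. PSMD6, a lid subunit, was at 65.5 and 72.6 CPM in shGOLM1, against 135 and 121 CPM in shscramble, with a log2 fold change of -0.89 (SE 0.28), the smallest unadjusted p of the members (0.0271) and a quasi-likelihood adjusted p of 0.42 (edgeR). PSMD7, the lid partner of the deubiquitinase PSMD14, was at 47.7 and 43.4 CPM in shGOLM1, against 79.1 CPM in both shscramble libraries. PSMD12, another lid subunit, was at 229 and 177 CPM in shGOLM1, against 378 and 373 CPM in shscramble. In these 3 the groups did not overlap. PSMD3 was at 153 and 92.2 CPM in shGOLM1, against 225 and 215 CPM in shscramble, and PSMD4, a ubiquitin receptor, at 161 and 150 CPM in shGOLM1, against 249 and 222 CPM in shscramble. PSMD14 was at 141 and 279 CPM in shGOLM1, against 204 and 197 CPM in shscramble, so PSMD7 was below and PSMD14 above the shscramble libraries in replicate 2. PSMD11 was at 148 and 100 CPM in shGOLM1, against 170 and 173 CPM in shscramble, without overlap, while the groups overlapped in PSMD8 and PSMD13.

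The large scaffold subunits PSMD1 and PSMD2 differed most between the shGOLM1 libraries within the 19S particle. PSMD1 was at 194 and 49.7 CPM in shGOLM1, against 240 and 247 CPM in shscramble. PSMD2 was at 373 and 137 CPM in shGOLM1, against 441 and 434 CPM in shscramble. Replicate 1 lay a little below the shscramble libraries and replicate 2 far below, with log2 differences of -2.29 for PSMD1 and -1.67 for PSMD2 from the shscramble mean. Summed over the 17 subunits of the 19S particle the level was 2421 and 2339 CPM in shGOLM1, against 3506 and 3360 CPM in shscramble.

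**Figure D5:**
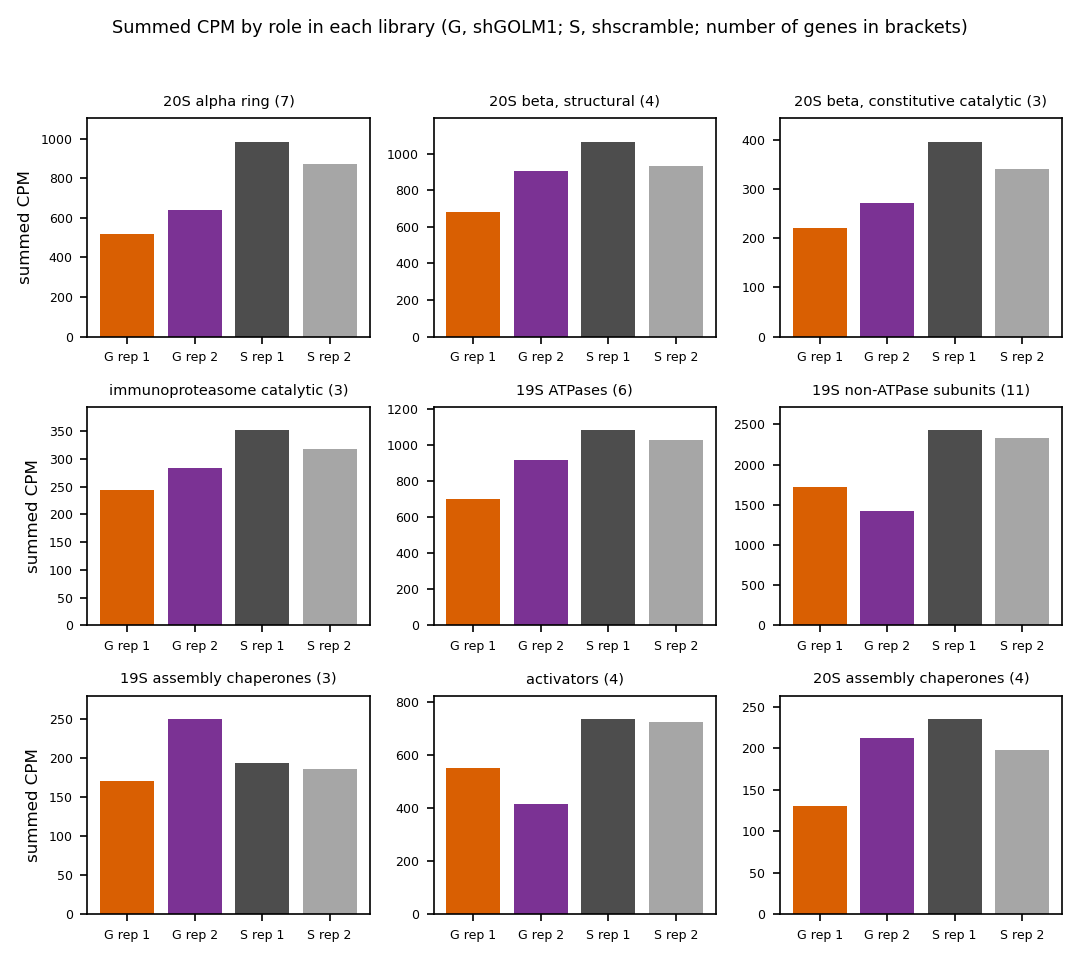
Bars give the summed CPM of the genes of a role in each library, with the shGOLM1 libraries (G) left of the shscramble libraries (S) and each vertical axis starting at 0. The 19S ATPases sum to 701 and 916 CPM in shGOLM1, against 1081 and 1029 CPM in shscramble, and in 7 of the 9 panels both shGOLM1 bars are below both shscramble bars, the exceptions being the 19S and the 20S assembly chaperones.

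The activators cap the core without ATP. PSME1 and PSME2 form 1 mixed ring that interferon induces, and their genes are neighbours on chromosome 14. PSME1 was at 100 and 261 CPM in shGOLM1, against 137 and 120 CPM in shscramble, and PSME2 at 110 and 83.2 CPM in shGOLM1, against 145 and 133 CPM in shscramble. Both lay below the shscramble libraries in replicate 1, but in replicate 2 PSME1 was the highest of the 4 libraries and PSME2 the lowest. PSME3, which forms a nuclear ring of its own, was at 261 and 27.4 CPM in shGOLM1, against 376 and 382 CPM in shscramble. Its log2 fold change of -1.39 had the widest error of the activators (SE 1.06, quasi-likelihood adjusted p of 0.606 in edgeR), and at -3.79 log2 units below the shscramble mean it had the lowest value of any member in replicate 2. The PSME3 log2 fold change was -3.84 without shGOLM1 replicate 1 and -0.55 without shGOLM1 replicate 2, and -2.16 with the replicate block and -2.11 in limma-voom. PSME4, a single-chain activator, was at 80.1 and 44.6 CPM in shGOLM1, against 76.2 and 87.5 CPM in shscramble, with overlap. The inhibitor PSMF1 was at 141 and 92.3 CPM in shGOLM1, against 150 and 142 CPM in shscramble.

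The chaperones that assemble the core work in pairs, PSMG1 with PSMG2 and PSMG3 with PSMG4. PSMG1 was at 39.0 and 18.5 CPM in shGOLM1, against 62.2 and 57.8 CPM in shscramble, with a log2 fold change of -1.06 (SE 0.46) and a quasi-likelihood adjusted p of 0.448 (edgeR). Without shGOLM1 replicate 1 that fold change was -1.75, and without shGOLM1 replicate 2 it was -0.64. Its partner PSMG2 was at 31.3 and 107 CPM in shGOLM1, against 44.4 and 41.1 CPM in shscramble. PSMG4 was at 22.3 and 13.5 CPM in shGOLM1, against 36.1 and 28.6 CPM in shscramble, and its partner PSMG3 at 38.2 and 72.8 CPM in shGOLM1, against 92.7 and 70.5 CPM in shscramble. All 4 lay below the shscramble mean in replicate 1, and in replicate 2 PSMG1 and PSMG4 were lower still while PSMG2 and PSMG3 were higher than in replicate 1. Whether partners differ from each other was not tested.

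The chaperones of the 19S base overlapped between the groups. PSMD10, also known as gankyrin, was at 75.2 and 189 CPM in shGOLM1, against 107 and 98.5 CPM in shscramble. PSMD5 was at 87.8 and 49.99 CPM in shGOLM1, against 75.2 and 76.7 CPM in shscramble, with the libraries on either side of shscramble in the opposite order to PSMD10. PSMD9 was at 7.35 and 10.7 CPM in shGOLM1, against 10.8 and 10.3 CPM in shscramble. PSMA8, an alpha subunit of the testis, was at 2.71 and 0.747 CPM in shGOLM1, against 1.62 and 1.86 CPM in shscramble. PSMC3IP, which matches by its spelling alone and encodes a recombination factor and no proteasome part, was at 8.998 and 17.0 CPM in shGOLM1, against 16.5 and 16.4 CPM in shscramble.

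Genes that work with the proteasome under other names were described list by list, and the counts below and above in each list stand beside 26.5% and 25.2% of all genes tested. Of 9 parts and helpers named otherwise, 4 lay below in both shGOLM1 libraries and 1 above, with a median log2 fold change of -0.31 and 0 called. The deubiquitinase UCHL5 was at 147 and 75.0 CPM in shGOLM1, against 200 and 194 CPM in shscramble. The ubiquitin receptor ADRM1 was at 71.5 and 33.0 CPM in shGOLM1, against 85.6 and 79.1 CPM in shscramble. The core maturation factor POMP was at 95.8 and 135 CPM in shGOLM1, against 163 and 136 CPM in shscramble. In all 3 the groups did not overlap, by a narrow margin in POMP.

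Of 11 regulators of proteasome genes 2 lay below and 4 above, with a median log2 fold change of 0.11 and 0 called. NFE2L1 was at 94.8 and 88.0 CPM in shGOLM1, against 108 and 102 CPM in shscramble, with a log2 fold change of -0.20 (SE 0.27). Its relative NFE2L3 was at 7.67 and 3.12 CPM in shGOLM1, against 10.4 and 10.6 CPM in shscramble. The small MAF factor MAFF was at 1.96 and 37.1 CPM in shGOLM1, against 2.18 and 1.98 CPM in shscramble, high in replicate 2 alone. The NFE2L1 protein is held at the endoplasmic reticulum and degraded until cleavage by DDI2 releases it, so its mRNA is not a measure of its activity.

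Of 15 shuttle, delivery and ubiquitin genes 3 lay below and 1 above, with a median log2 fold change of -0.12 and 0 called. ZFAND5, which stimulates the proteasome, was at 273 and 282 CPM in shGOLM1, against 194 CPM in both shscramble libraries. UBQLN1, a shuttle that carries substrates to the proteasome, was at 160 and 205 CPM in shGOLM1, against 236 and 231 CPM in shscramble.

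Of 8 interferon-driven partners of the immunoproteasome 3 lay below and 2 above, with a median log2 fold change of 0.08 and 0 called. ERAP1, which trims peptides for MHC class I, was at 78.1 and 70.2 CPM in shGOLM1, against 35.4 and 37.0 CPM in shscramble, with a log2 fold change of 1.04 (SE 0.28) and a quasi-likelihood adjusted p of 0.42 (edgeR). The peptide transporter gene TAP2 was at 74.1 and 24.2 CPM in shGOLM1, against 88.2 and 96.9 CPM in shscramble. B2M, the light chain of MHC class I, was at 682 and 3476 CPM in shGOLM1, against 1035 and 902 CPM in shscramble.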

How the data were processed

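RNA-seq of 2 shGOLM1 and 2 shscramble libraries was analysed from the deposited table, with samples grouped by their titles. Per the labels' protocols, a SMARTER mRNA-seq kit was used on total RNA. The sources used here do not give the aligner, counter or strand setting. All 58735 identifiers and coordinates equal GENCODE 29 on GRCh38, although the submitters' processing notes list mouse builds. Per the file headers, the deposited counts are whole reads per gene and the FPKM values are the authors', scaled by gene length. The deposited group signal is the authors' mean of scaled counts and was not used. The authors' log2 fold changes and p-values, deposited with no tool named, are quoted as the authors'.

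Counts were fitted with edgeR 4.0.16 (limma 3.58.1, R 4.3.3): TMM, filterByExpr, the quasi-likelihood test, two-sided, Benjamini-Hochberg over 14166 genes, threshold 0.05. Log2 differences of single libraries use log2 CPM with a prior count of 2, and log2 ratios add 0.5 to each count. Per-library values are given for the catalytic subunits and for up to 4 members of each role, or genes of each list, chosen by smallest p among those averaging at least 1 CPM. PSMA1, PSMA2, PSMA6, PSMC1, PSMC6, PSMD1, PSMD2, PSMD4, PSMD11, PSMD14 and NFE2L1 were added after their values were seen. Alternatives were other scalings and filters, DESeq2 1.42.0, limma-voom, a likelihood-ratio test, a replicate block and each library left out. The code was tested on simulated data. The main fit did not pair libraries by replicate number. Members and lists were chosen with earlier results of these data known.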

Additional observations from a re-analysis of the deposited data

How the results depend on the processing

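No member was called under any alternative that kept all 4 libraries, or without either shscramble library, while leaving out either shGOLM1 library gave 37 members called, so the range of left-out libraries was 0 to 37. Genes called numbered 0 in the main analysis, 192 with no filter on low counts, 203 with the replicate block, 533 with DESeq2, 496 with the likelihood-ratio test and 20 to 10290 with 1 library left out. The fits without a shGOLM1 library also called large shares of all genes tested in both directions, as given above. Their count of members called is to be read beside those shares and is not specific to the proteasome. The median log2 fold change of members, -0.45, was -0.54 with library totals alone, -0.53 with no filter, -0.35 with at least 5 CPM in 2 libraries and -0.57 to -0.42 with 1 library left out. The members' median minus that of all genes ran from -0.78 to -0.40. GOLM1, at -1.61, passed in DESeq2 (log2 fold change -1.60, adjusted p = 0.0208) and in edgeR's likelihood-ratio test (-1.61), and ran from -1.66 to -1.63 with 1 library left out. The ratios of immunoproteasome to constitutive subunits kept their sign under every setting tried.

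These stability counts cover only the 36 members chosen by role and smallest p, as described under the processing. Of 323 values for these 36 members under alternatives that kept all libraries 320 kept direction and call. PSMA8 changed sign with size factors of the DESeq2 kind and DESeq2 (0.0001 each) and with library totals alone (0.0197). With 1 library left out the sign changed for 8 members, whose log2 fold changes ran from -0.5915 to 0.0083 in PSMB4, -0.68 to 0.16 in PSMB1, -0.88 to 0.0026 in PSMC3IP, -0.47 to 0.83 in PSMD10, -0.65 to 0.19 in PSMD5, -0.47 to 1.28 in PSMG2, -0.37 to 0.97 in PSME1 and -1.27 to 0.62 in PSMA8. In each of these the values without shGOLM1 replicate 1 and without shGOLM1 replicate 2 had opposite signs. Outside the 36, the same held for PSMC6, PSMD14, PSMD13, PSMD8 and PSMA1. Without shGOLM1 replicate 2 their values were -0.92, -0.53, -0.47, -0.50 and -0.13. Without shGOLM1 replicate 1 they were 0.42, 0.43, 0.03, 0.18 and 0.95. PSMA2, PSMA6, PSMC1, PSMD1, PSMD2, PSMD4 and PSMD11 kept 1 sign in both fits. The cause of these changes was not tested. The correlation of same-numbered deviations was -0.0977, so no pairing by replicate number was seen. That check cannot exclude a pairing, since the coefficient of variation was 68.1% within the shGOLM1 pair and 9.1% within the shscramble pair. The robust fit and the counts of members below or above under other scalings were chosen after seeing the data. The log2 fold change of 15 of the 36 members stayed within 1.5 times its value under every alternative tried. With TMM scaling the members' median difference from the shscramble mean was -0.52 log2 units in each shGOLM1 library, beside a median difference of 0.59 between the shGOLM1 replicates.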
